A study of Mus musculus with 113 samples.

Results

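The genes described here are 10 genes of the LIF receptor and Stat3 pathway, taken by gene symbol from the 4 expression tables of a study of neural differentiation of mouse embryonic stem (ES) cells: *Lif*, *Lifr*, *Il6st*, *Jak1*, *Jak2*, *Stat3*, *Socs3*, *Socs2*, *Pim1* and *Pim3*. All 10 were listed in each table, among 13541 genes for the SFEB cell populations, 13738 for the adherent monocultures, 23107 for the E14 libraries and 11449 for the single cells. All 10 also passed the filter on low values used for the tests (at least 1 FPKM in at least 3 samples), which 13363 genes of the SFEB table, 12879 of the adherent table and 12257 of the E14 table passed. Expression is given as FPKM, fragments scaled to transcript length and to the mapped fragments of a library.

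R1 mouse ES cells were taken out of ES cell medium and differentiated by either of 2 routes. SFEB cells, which form floating embryoid body-like aggregates without serum, were kept in GKSR medium until day 6 and sampled as a first series at 14 times from 0 to 142 h and as a parallel series at 8 times from 0 to 216 h, the latter also as 64 single cells, 8 per time. Adherent monocultures were kept in N2B27 medium and sampled at 15 times from 0 to 216 h. On day 6, which is 144 h, the cells of each route were replated on coated dishes, and those of the SFEB route were moved to GMEM-N2 medium at this step. The labels do not say whether the 144 h samples were taken before or after it. The R1 cells had been passaged once without feeder cells. Each R1 time point is 1 library. E14 ES cells, a line of another origin, were sampled at day 0 and day 4 of neural induction as wild type (WT) and as *Fyn* knockout (KO), with 3 libraries in each of the 4 groups. The KO is 1 clone with a deletion that removes the start codon of *Fyn*, a Src family kinase, in cells of the same E14 line. The labels do not say by which route the E14 cells were differentiated, nor whether the 3 libraries of a group came from separate cultures, so p-values measure only the spread between these libraries. Whether LIF was in the ES cell medium is not given in the sources used here.

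LIF (leukaemia inhibitory factor) is a secreted cytokine that is routinely added to mouse ES cell medium to hold the cells in an undifferentiated state. It binds a receptor made of Lifr and gp130, the product of *Il6st*. Kinases of the Jak family bound to the receptor then phosphorylate Stat3, which enters the nucleus and acts as a transcription factor. *Socs3* is a direct target of *Stat3* whose product binds gp130 and the Jaks and shuts the signal down. *Stat3* acts on its own gene as well. *Socs2* is another member of this inhibitor family, known chiefly for restraining growth hormone signalling. *Pim1* and *Pim3* encode serine/threonine kinases that promote survival and are induced by Stat signals.

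To show where a Stat dimer could bind near the start sites, the 250 bases upstream of the RefSeq start were read for *Socs3*, the member with the widest range of levels, and for *Stat3*, the transcription factor itself, and *Jak2*, which ended above its 0 h level. Capitals mark TTCNNNGAA, the Stat binding consensus, which is its own reverse complement, and the GC box GGGCGG or its reverse complement CCGCCC. The coordinates are those of the build GRCm38.p6. The window of *Socs3* is chr11:117969367-117969616 on the minus strand, that of *Stat3* is chr11:100939541-100939790 on the minus strand and that of *Jak2* is chr19:29251553-29251802 on the plus strand.
*Socs3*: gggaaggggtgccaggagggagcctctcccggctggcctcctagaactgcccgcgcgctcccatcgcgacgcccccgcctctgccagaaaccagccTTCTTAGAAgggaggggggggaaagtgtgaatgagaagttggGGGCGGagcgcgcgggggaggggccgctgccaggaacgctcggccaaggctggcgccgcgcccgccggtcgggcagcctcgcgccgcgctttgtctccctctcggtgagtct
*Stat3*: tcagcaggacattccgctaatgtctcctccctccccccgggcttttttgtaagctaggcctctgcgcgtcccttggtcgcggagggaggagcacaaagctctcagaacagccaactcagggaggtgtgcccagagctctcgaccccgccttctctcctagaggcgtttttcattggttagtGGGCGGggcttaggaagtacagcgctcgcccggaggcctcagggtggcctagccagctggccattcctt
*Jak2*: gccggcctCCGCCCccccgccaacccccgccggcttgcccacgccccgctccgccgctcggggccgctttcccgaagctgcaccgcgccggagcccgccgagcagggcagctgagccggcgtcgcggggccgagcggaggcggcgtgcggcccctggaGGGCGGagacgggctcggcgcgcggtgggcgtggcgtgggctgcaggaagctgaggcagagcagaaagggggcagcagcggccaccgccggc
The match in *Socs3* reads TTCTTAGAA and lies 154 to 146 bases upstream of the start. A GC box lies 112 to 107 bases upstream of the start of *Socs3* and 69 to 64 bases upstream of that of *Stat3*. RefSeq entries were found for 9 of the 10 members, 11 windows in all, and only the *Socs3* window held TTCNNNGAA. Over 32851 windows of the same length, 7.02% held TTCNNNGAA on either strand and 32.7% held a GC box. A GC box stood in 8 of the 11 windows, with 7 in the first of the 2 windows of *Pim1*. The 2 motifs did not overlap in the windows printed. A match describes the letters of a window only.

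On the build NCBIM37 (mm9) 3 of the members lie on chromosome 11, *Lif* at chr11:4157560-4172517, *Stat3* at chr11:100746412-100800854 and *Socs3* at chr11:117827393-117831361. Exons of *Stat3* overlap exons of *Stat5a* on the other strand, and exons of *Jak1* overlap those of *Raver2* and those of *Pim1* overlap *Gm16912*, each on the other strand. The library kit does not mark the strand, so reads from the shared parts of these pairs cannot be told apart.

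The cells carried the markers of their labels. The summed level of 9 naive pluripotency genes was 798 to 953 FPKM in the 3 R1 libraries at 0 h and 46.8 to 77.7 FPKM in the last library of each series, while it was 990 to 1451 FPKM in the E14 day 0 libraries and 172 to 591 FPKM at day 4. *Fyn* was at 2.74 to 4.00 FPKM in WT and 0.598 to 1.10 FPKM in KO at day 0, and at 4.54 to 9.44 FPKM in WT and 1.13 to 1.58 FPKM in KO at day 4, so the genotypes did not overlap. Markers of another cell type were high in the R1 cultures. The summed level of 10 fibroblast genes, which mark the feeder cells that ES cells are commonly grown on, was 810, 846 and 349 FPKM at 0 h in the first, parallel and adherent series. It was down to 16 FPKM at 68 h in the first series, 35.1 FPKM at 106 h in the parallel series and 48.1 FPKM at 216 h in the adherent series, and stood at 110 FPKM at 216 h in the parallel series. In the 12 E14 libraries the same sum was 2.42 to 12.7 FPKM, with *Col3a1*, *Lum* and *Postn* at no more than 0.0773 FPKM. In such bulk samples fewer cells of a type and less RNA per cell cannot be told apart.

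*Lif* itself, the ligand, was at a low level throughout. In the first SFEB series it was at 2.41, 3.82, 4.45 and 4.82 FPKM at 0, 1, 2 and 8 h, then at 2.80 FPKM at 22 h and between 1.62 and 2.21 FPKM from 34 to 68 h, and it ended at 0.272 FPKM at 142 h. In the parallel series it went from 2.57 FPKM at 0 h to 4.05 FPKM at 9 h and 0.701 FPKM at 216 h. Thus the level was higher 8 or 9 h after the change of medium than at 0 h in each SFEB series. In the adherent cells it was at 2.92 FPKM at 0 h and 1.91 FPKM at 2.5 h, with the lowest value of 0.977 FPKM at 125.5 h and the highest of 3.43 FPKM at 144 h. The early high values of the SFEB series were not seen there.

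*Lifr*, the ligand-specific receptor chain, was lower than at 0 h from 68 h on in each of the 3 series. In the first SFEB series it was at 18.2 FPKM at 0 h, 15.4 FPKM at 8 h and 14.3 FPKM at 22 h, then at 5.86 FPKM at 42.5 h, and stayed between 2.45 and 3.46 FPKM from 68 to 142 h. In the parallel series it went from 15.7 FPKM at 0 h to 3.40 FPKM at 84 h and was back at 8.99 FPKM at 216 h. In adherent monocultures it was at 9.49 FPKM at 0 h, 12 FPKM at 8.5 h, 2.16 FPKM at 101.5 h and 6.06 FPKM at 216 h, and its fall was not steady, with 4.34 FPKM at 41.5 h and 9.88 FPKM at 53.5 h.
The higher late values were those of the parallel and adherent series at 144 and 216 h.

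*Il6st*, which encodes the shared signalling chain gp130, was at 28.1 FPKM at 0 h, 13.7 FPKM at 2 h and 7.36 FPKM at 42.5 h in the first SFEB series, and ended at 13 FPKM. The parallel series went from 28.2 to 9.01 FPKM at 60 h and 12 FPKM at 216 h. The adherent cells went from 18.9 to 8.52 FPKM at 68.5 h and 15.2 FPKM at 216 h. All 3 series therefore had their lowest value between 42.5 and 68.5 h.

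The kinases *Jak1* and *Jak2* parted late in the time course. *Jak1*, the kinase most used by gp130, was at 21.2 FPKM at 0 h and 8.06 FPKM at 42.5 h in the first SFEB series and at 13 FPKM at 142 h. In the parallel series it was at 21.5, 9.60 and 14.2 FPKM at 0, 38 and 216 h, and in the adherent cells at 14, 8.59 and 14.2 FPKM at 0, 35.5 and 216 h. *Jak2* was at 3.78 FPKM at 0 h, 1.57 FPKM at 42.5 h and 10.6 FPKM at 142 h in the first SFEB series, and at 4.29, 1.50 and 12.8 FPKM at 0, 38 and 216 h in the parallel series. In the adherent cells *Jak2* went from 1.23 FPKM at 0 h and 0.758 FPKM at 41.5 h to 10.3 FPKM at 101.5 h, 15.7 FPKM at 144 h and 8.68 FPKM at 216 h. *Jak2* was the only member whose last value was above its 0 h value in each of the 3 series.

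*Stat3* was at 32.3, 35.3, 26.6 and 22.6 FPKM at 0, 1, 2 and 8 h in the first SFEB series, at 14.8 FPKM at 22 h, and between 5.14 and 7.51 FPKM from 42.5 to 142 h. In the parallel series it was at 31.9, 18.4, 6.61, 6.57, 7.40, 8.35, 8.66 and 24.6 FPKM at 0, 9, 38, 60, 84, 106, 144 and 216 h. In adherent monocultures it went from 29.0 FPKM at 0 h to 4.74 FPKM at 80.5 h, and was at 9.67, 19.4 and 20.9 FPKM at 140.5, 144 and 216 h. At 216 h the level was 1.3 times lower than at 0 h in the parallel series and 1.39 times lower in the adherent series, while the first series ended at 142 h at 6.16 FPKM. From 144 to 216 h the fibroblast sum went from 40.1 to 110 FPKM in the parallel series and from 48.5 to 48.1 FPKM in the adherent series. The 1 astrocyte marker listed went from 1.62 to 7.38 FPKM and from 3.06 to 2.91 FPKM. The part of these markers in the late values of *Stat3* was not tested.

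*Socs3*, the feedback inhibitor, had the widest change, and much of its drop in FPKM came within 9 h. In the first SFEB series it was at 47.0 FPKM at 0 h, 31.1 FPKM at 1 h, 9.71 FPKM at 2 h, 6.35 FPKM at 8 h and 3.07 FPKM at 22 h, with the lowest value of 1.29 FPKM at 42.5 h. The parallel series went from 27.1 FPKM at 0 h to 5.64 FPKM at 9 h, 1.93 FPKM at 60 h and 7.73 FPKM at 216 h. The adherent cells went from 40.0 FPKM at 0 h to 9.56 FPKM at 2.5 h, 1.84 FPKM at 53.5 h, 11.5 FPKM at 144 h and 7.83 FPKM at 216 h. The ratio of the 0 h value to the lowest value was 36.4 in the first series, 14 in the parallel series and 21.7 in the adherent cells.

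*Socs2* went the other way at first. It was at 17.05, 21.1 and 32.9 FPKM at 0, 1 and 2 h in the first SFEB series, reached 40.1 FPKM at 34 h and ended at 9.91 FPKM at 142 h. In the parallel series it stayed between 29.4 and 33.1 FPKM from 9 to 106 h, above 19.2 FPKM at 0 h, and was at 12.9 FPKM at 216 h. In the adherent cells it went from 23.6 FPKM at 0 h to 40.5 FPKM at 20.5 h and 9.96 FPKM at 216 h. At each time sampled from 1 to 22 h in the 3 series *Socs2* was above and *Socs3* below its 0 h value.

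The Pim kinase genes were lower at the end of each series than at 0 h, and part of the drop of *Pim3* came within the first hours. *Pim3* was at 61.7, 65.1 and 64.2 FPKM at 0, 1 and 2 h in the first SFEB series, at 28.3 FPKM at 8 h and at 10.8 FPKM at 142 h, so it was still at its 0 h level at 2 h, when *Socs3* was not. It was at 50.7, 23.5 and 13 FPKM at 0, 9 and 216 h in the parallel series and at 46.2, 25.4 and 12.3 FPKM at 0, 2.5 and 216 h in the adherent cells. *Pim1* went from 34.8 FPKM at 0 h to 6.49 FPKM at 142 h in the first SFEB series, from 37.4 to 5.74 FPKM at 216 h in the parallel series and from 37.4 to 8.28 FPKM at 216 h in the adherent cells. *Pim1* had high values on the way, 21.9 FPKM at 144 h in the parallel series and 20.2 FPKM at 144 h in the adherent cells.

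**Figure D1:**
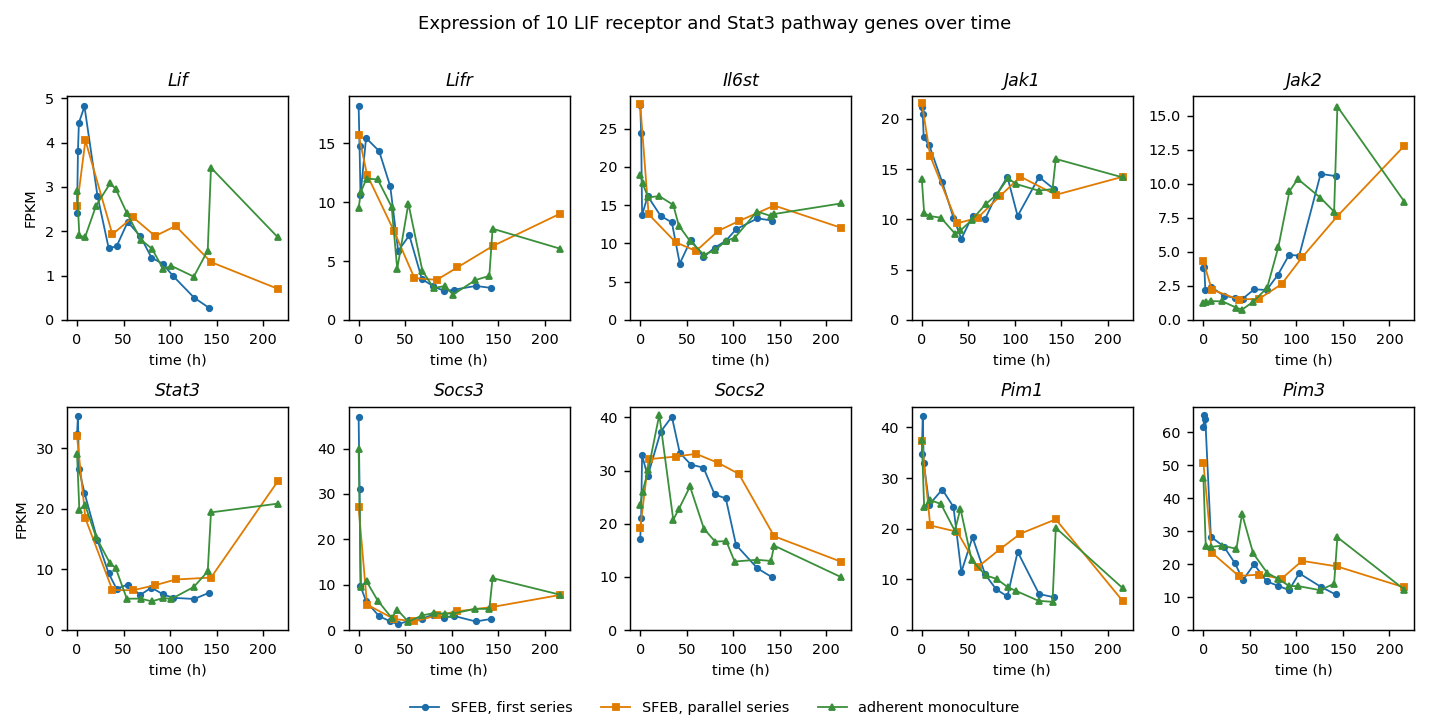
FPKM of the 10 genes (vertical axes, each from 0) against hours after the change of medium, with 1 library per point, for the first SFEB series (circles), the parallel SFEB series (squares) and the adherent monocultures (triangles). *Socs3* drops from 47.0 to 9.71 FPKM within 2 h in the first series, *Jak2* ends above its 0 h value in each series and *Socs2* is highest between 20.5 and 60 h.

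Within the first hours *Socs3* had the largest change of the members. At 2 h in the first SFEB series it was 4.84 times lower than at 0 h in FPKM and 4.48 times lower on the FPKM + 1 scale. On that scale it was the 1 member past 2-fold, a change that 4.09% of all expressed genes showed in either direction, with *Il6st* just short of it at 1.98 times lower (2.05 times in FPKM). At 8 h *Socs3* and *Pim3* were past 2-fold, against 3.32% of all genes. At 9 h in the parallel series the same pair was past 2-fold, against 3.66% of all genes, and *Il6st* was 1.97 times lower (2.04 times in FPKM). In adherent monocultures *Socs3* alone was past 2-fold at 2.5 h (2.64% of all genes) and at 8.5 h (3.07%). The median change over the 10 members was -0.24, -0.48, -0.74, -0.40 and -0.43 on the log2 scale at these 5 times, beside medians over all genes of -0.07, 0.03, -0.02, -0.05 and 0.02. The summed fibroblast markers went from 810 FPKM at 0 h to 550 FPKM at 2 h and 352 FPKM at 8 h of the first series. They went from 846 to 369 FPKM over 9 h of the parallel series. In the adherent series they were at 349, 321 and 258 FPKM at 0, 2.5 and 8.5 h. Their part in the values of *Socs3* and the other members was not tested.

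At the ends of the series most members were lower than at 0 h. At 142 h in the first series 7 members were lower by 2-fold or more and *Jak2* was higher by 2-fold or more, where 31.4% of all genes had changed this much in either direction. At 216 h in the parallel series 5 were lower and *Jak2* was higher, against 33.9% of all genes. At 216 h in the adherent cells 4 were lower and *Jak2* was higher, against 31.2% of all genes. The median change of the 10 members was -1.82, -0.91 and -0.51, beside 0.12, 0.08 and 0.11 for all genes. With 1 library per time these values have no replicate error. The 2 SFEB libraries at 0 h belong to different series, and their values had been through ComBat with batches that are not given. They are therefore no estimate of replicate error. Their members differed by at most 1.73 times, in *Socs3*, which was at 47.0 FPKM in the first series and 27.1 FPKM in the parallel series.

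The slope over time was tested in limma on log2(FPKM + 1) against log2(hours + 1), so that a slope is the change per doubling of hours + 1. In the 22 SFEB libraries 8 of the 10 members had a slope below 0 with an adjusted p under 0.05, and none had one above 0. Of all genes tested, 22.2% had a lower and 27.5% a higher trend. The steepest was *Socs3* with -0.42 ± 0.06 (SE, adjusted p = 1.42e-05), followed by *Stat3* with -0.31 ± 0.05 (adjusted p = 1.16e-05), *Pim3* with -0.30 ± 0.03 (adjusted p = 1.25e-08) and *Lifr* with -0.29 ± 0.05 (adjusted p = 4.81e-05). *Pim1*, *Lif*, *Il6st* and *Jak1* had slopes of -0.28, -0.18, -0.15 and -0.11. *Jak2* (0.10 ± 0.06, adjusted p = 0.198) and *Socs2* (-0.04 ± 0.05, adjusted p = 0.531) had no call, and the smooth curve fitted as an alternative, which allows a turn, called both, as it did 87.5% of all genes. Against linear hours, with 62.97% of all genes called, *Jak2* was called higher (adjusted p = 8.51e-05) and *Socs2* lower (adjusted p = 0.00316), while *Socs3* (adjusted p = 0.0709), *Il6st* (adjusted p = 0.095) and *Jak1* (adjusted p = 0.164) had no call. *Jak2* was also called higher without the 0 h samples (slope 0.22, adjusted p = 0.0388), where 50.8% of all genes were called. In the parallel series alone, with 8 libraries, *Pim3* was the 1 member called, where 5.69% of all genes were called, and the slopes of the other 7 that were called over all 22 libraries stayed below 0 (-0.14 for *Il6st*, -0.09 for *Jak1*, -0.27 for *Socs3*). The fibroblast markers moved with the members. All 10 of them were called lower in the SFEB trend, with a median slope of -0.57, and before 48 h again all 10, with a median of -0.62. Of the 10 in the adherent trend 8 were called lower, with a median of -0.29. Their part in the members' slopes was not tested.

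In the 15 adherent libraries 7 members had a slope below 0 and *Jak2* had a slope above 0 (0.37 ± 0.10, adjusted p = 0.0061), where 20.3% of all genes tested were lower and 27.9% were higher. *Pim1* (-0.30 ± 0.06, adjusted p = 0.00105) and *Socs3* (-0.29 ± 0.08, adjusted p = 0.0103) were the steepest, and *Stat3*, *Lifr*, *Pim3*, *Socs2* and *Il6st* had slopes of -0.22, -0.21, -0.19, -0.16 and -0.09. *Lif* (-0.06 ± 0.04, adjusted p = 0.265) and *Jak1* (0.03 ± 0.03, adjusted p = 0.41) had no call. The calls of *Stat3* and *Il6st* were each lost when any of 6 of the 15 libraries was left out, those of 0, 2.5, 8.5, 92.5 and 101.5 h in either case, with 125.5 h for *Stat3* and 20.5 h for *Il6st*, and the largest adjusted p was 0.183 and 0.137. That of *Socs3* was lost without the 0 h library (slope -0.12, adjusted p = 0.33), without which *Jak1* was called higher (slope 0.10, adjusted p = 0.0385). Against linear hours *Lifr* (adjusted p = 0.0502), *Il6st* (adjusted p = 0.436), *Stat3* (adjusted p = 0.585) and *Socs3* (adjusted p = 0.494) had no call and *Jak1* was called higher (adjusted p = 0.0233), where 59.8% of all genes were called.

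Since several members turned at about 2 days, slopes before and after 48 h were fitted as well, a split chosen after the values were seen. Before 48 h the SFEB slope of *Socs3* was -0.67 ± 0.05 (adjusted p = 1.42e-10) and that of *Stat3* was -0.44 ± 0.05 (adjusted p = 1.23e-06). After 48 h *Jak2* (1.32 ± 0.09, adjusted p = 3.86e-11), *Socs3* (0.64 ± 0.14, adjusted p = 0.000285), *Il6st* (0.26 ± 0.09) and *Jak1* (0.25 ± 0.07) rose, while *Socs2* (-0.89 ± 0.10, adjusted p = 1.1e-07), *Lif* (-0.60 ± 0.13) and *Pim1* (-0.55 ± 0.18) fell. That is 4 members up and 3 down, where 39.5% of all genes rose and 28.5% fell. In the adherent cells *Jak2* (1.42 ± 0.20, adjusted p = 2.72e-05), *Socs3* (0.63 ± 0.17) and *Jak1* (0.34 ± 0.07) rose after 48 h, and *Socs2* (-0.62 ± 0.11), *Pim1* (-0.58 ± 0.19) and *Pim3* (-0.39 ± 0.15) fell, where 36.5% of all genes rose and 20.8% fell. The slope of *Stat3* after 48 h was 0.20 ± 0.17 in SFEB cells and 0.40 ± 0.23 in adherent cells, with no call in either. Markers moved after 48 h as well. In either fit the 6 neural progenitor genes and the 4 neuron genes tested were called higher, and 8 of 9 naive genes lower. Of the 10 fibroblast genes 4 were called lower and 1 higher in SFEB cells, and 5 lower in adherent cells. Endoderm genes were called higher in 1 of 2 tested in SFEB and 5 of 5 in adherent cells. The part of these markers was not tested.

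The libraries of 144 h carried part of the late values. In adherent monocultures all 10 members were higher at 144 h than at 140.5 h, by a median of 0.89 on the log2 scale beside 0.04 for all genes. *Pim1* was at 5.59 and 20.2 FPKM, *Socs3* at 4.67 and 11.5 FPKM, *Stat3* at 9.67 and 19.4 FPKM and *Jak2* at 7.95 and 15.7 FPKM at these times. In SFEB cells the 144 h library of the parallel series was higher than the 142 h library of the first series in 8 of the 10 members, by a median of 0.78 beside -0.01 for all genes. Day 6 is also the time of replating, in SFEB cells with the second change of medium, and the 2 SFEB libraries belong to different series. Summed levels of the markers listed in each table moved as well. Between 140.5 and 144 h in the adherent libraries the mesoderm genes went from 1.58 to 24.7 FPKM and the endoderm genes from 11.2 to 44.8 FPKM, while the naive genes went from 85.7 to 90.9 FPKM and the fibroblast genes from 63.9 to 48.5 FPKM. Neural progenitor genes went from 383 to 337 FPKM and neuron genes from 475 to 350 FPKM there. In the SFEB libraries of 142 and 144 h the naive genes were at 46.8 and 244 FPKM, the fibroblast genes at 17.9 and 40.1 FPKM, the mesoderm genes at 9.52 and 24.2 FPKM and the endoderm genes at 2.99 and 15.7 FPKM, with the neural progenitor genes at 691 and 367 FPKM and the neuron genes at 572 and 316 FPKM. The part of any of these in the members' values was not tested.

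**Figure D2:**
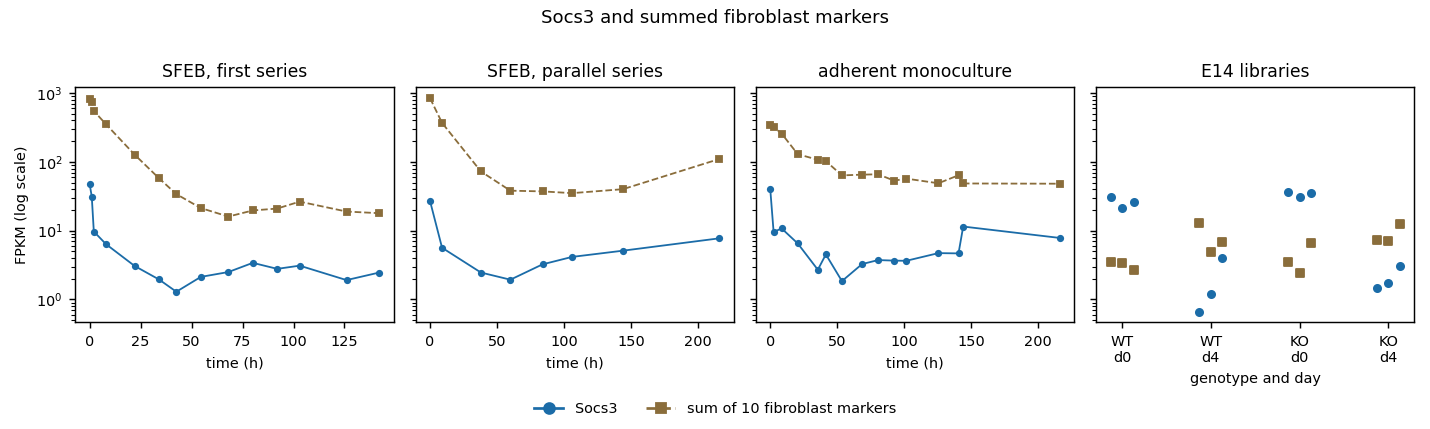
FPKM on a log scale of *Socs3* (circles) and of the sum of 10 fibroblast markers (squares) against hours in the 3 R1 series and by genotype and day in the 12 E14 libraries, 1 library per point. In the R1 series both come down from 0 h, while in E14 cells *Socs3* is at 21.5 to 36.5 FPKM at day 0 and 0.661 to 3.97 FPKM at day 4 with the marker sum at 2.42 to 12.7 FPKM.

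The genes most like a member over time were found by the Pearson r of log2(FPKM + 1) over the 22 SFEB libraries, which are ordered in time and share their series. Those most like *Lifr* were *Myst4* (0.964), *Camk1d* (0.953), *Arid5b* (0.952), *1700061G19Rik* (0.95) and *Csad* (0.95), with r of 0.812 to 0.905 over the 15 adherent libraries. Those most like *Stat3* were *Islr* (0.975), *A430105I19Rik* (0.972), *Gpr124* (0.969), *Tgfbi* (0.967) and *Itm2b* (0.966), of which 4 were listed in the adherent table, with r of 0.601 to 0.909. Those most like *Socs3* were *Adra1d* (0.967), *Lama4* (0.962), *Abi3bp* (0.962), *9930013L23Rik* (0.960) and *Loxl4* (0.958), with r of 0.522 to 0.819 for the 4 in the adherent table. Among the members, *Stat3* had its highest r with *Socs3* in SFEB cells (0.875) and with *Il6st* in adherent cells (0.897), and its lowest in magnitude with *Jak2* in SFEB cells (0.006). All 10 fibroblast markers fell over the same SFEB libraries (median slope -0.57), and their part in these r values was not tested.

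The E14 libraries gave the comparison with replicates. From day 0 to day 4 in WT cells *Socs3*, *Stat3* and *Pim1* fell and *Socs2* rose, so that 3 members were lower and 1 was higher where 10.3% of all genes tested were lower and 15.5% were higher. The other 6 members had no call. The summed level of the 10 fibroblast genes was higher at day 4 in this line, at 2.68 to 3.52 FPKM on day 0 and 4.83 to 12.7 FPKM on day 4 in WT, and at 2.42 to 6.61 FPKM and 7.05 to 12.4 FPKM in KO, with no overlap in either. In WT the endoderm genes were at 1.32 to 4.36 FPKM on day 0 and 3.69 to 36.3 FPKM on day 4, and the neural progenitor genes at 3.89 to 12.3 FPKM and 15.4 to 147 FPKM. The first WT library of day 4 had the highest neural sum (147 FPKM) and the lowest naive sum (172 FPKM), and also the lowest *Socs3*, *Stat3* and *Pim1* of the 3. Without it the same 4 members were called in WT, with changes of -3.01 for *Socs3*, -1.57 for *Stat3*, -1.63 for *Pim1* and 1.59 for *Socs2*. The part of these markers in the members' values was not tested. Of the 2 that passed the filter, *Thy1*, which neurons also express, was called higher in either genotype.

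*Socs3* was at 30.9, 21.5 and 25.9 FPKM in the 3 WT libraries of day 0 and at 0.661, 1.22 and 3.97 FPKM in those of day 4. The groups were far apart. The mean went from 26.1 ± 4.70 to 1.95 ± 1.77 FPKM (SD, n = 3), 13.4 times lower, with a change of -3.35 ± 0.34 on the log2(FPKM + 1) scale (SE, limma adjusted p = 0.000163). *Stat3* was at 30.7, 31.3 and 41.2 FPKM at day 0 and 4.27, 10.4 and 11.3 FPKM at day 4. Its groups did not overlap either, and the change was -1.96 ± 0.28 (limma adjusted p = 0.00097).

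*Pim1* was at 34.1, 73.6 and 56.6 FPKM at day 0 and 2.28, 19.6 and 13.3 FPKM at day 4, with wide spread in each group. The change of -2.43 ± 0.59 passed the test (limma adjusted p = 0.0117), and without the second WT library of day 0 it did not (adjusted p = 0.0507). *Socs2* was at 8.26, 12.7 and 14.9 FPKM at day 0 and 24.0, 37.8 and 36.2 FPKM at day 4. It was the only member called higher at day 4, by 1.39 ± 0.27 (limma adjusted p = 0.00442), and its day 4 values were apart from those of day 0.

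The receptor and kinase genes gave no call in WT. *Lifr* had a mean of 7.35 ± 2.32 FPKM at day 0 and 6.85 ± 3.74 FPKM at day 4 (SD, n = 3). *Il6st* had 16.4 ± 4.50 and 12.4 ± 3.76 FPKM, *Jak1* 13 ± 1.47 and 11 ± 1.69 FPKM and *Jak2* 1.68 ± 0.71 and 2.56 ± 0.613 FPKM. The largest of these 4 changes, that of *Jak2*, was 0.43 ± 0.26 (limma adjusted p = 0.237). *Pim3* was at 27.1 ± 2.14 and 18.6 ± 4.63 FPKM, with no overlap between the days but no call (-0.55 ± 0.40, limma adjusted p = 0.336), and *Lif* was at 2.82 ± 1.20 and 1.63 ± 0.686 FPKM (-0.53 ± 0.29, limma adjusted p = 0.209).

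**Figure D3:**
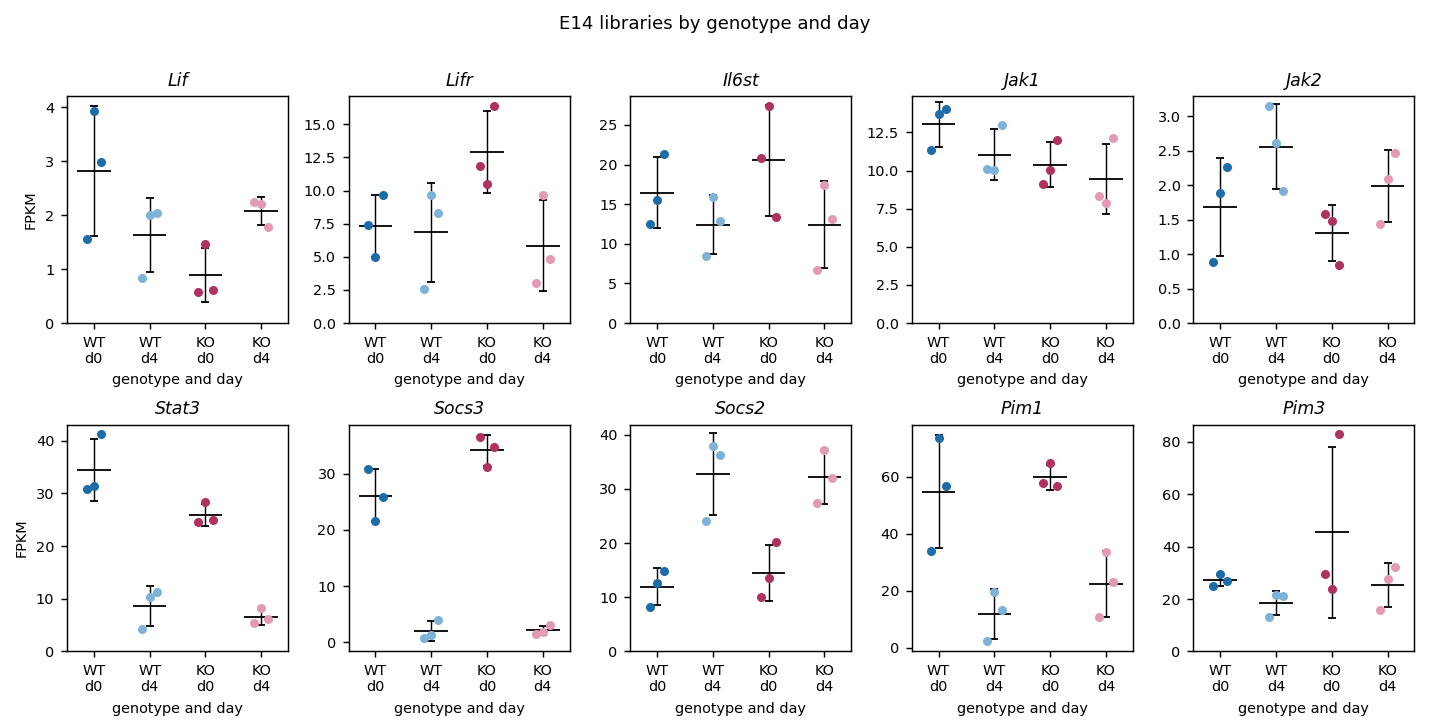
FPKM of the 10 genes in the 12 E14 libraries by genotype (WT, *Fyn* KO) and day (d0, d4), with 1 point per library, the mean as a line and the SD as bars (n = 3). *Socs3* and *Stat3* are lower and *Socs2* is higher in every day 4 library than in every day 0 library of the same genotype.

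In the *Fyn* KO clone *Socs3* and *Stat3* fell and *Socs2* rose, 2 members lower and 1 higher, where 7.56% of all genes tested were lower and 11.8% higher. *Socs3* was at 36.5, 31.2 and 34.9 FPKM at day 0 and 1.48, 1.73 and 3.06 FPKM at day 4 (-3.54 ± 0.34, limma adjusted p = 0.000189). *Stat3* was at 24.5, 28.4 and 24.9 FPKM and at 5.37, 8.32 and 6.10 FPKM (-1.84 ± 0.28, limma adjusted p = 0.00176). In both genes the 2 days were apart. Marker sums moved with the days in this clone too. That of 5 neuron genes was 121 to 204 FPKM at day 0 and 47.7 to 63.5 FPKM at day 4, and that of 6 mesoderm genes was 2.20 to 21.6 FPKM and 1.27 to 2.15 FPKM, with no overlap in either. The sums do not stand for each gene of a list. Of the 3 neuron genes tested 1 was called lower and 1 higher, and of the 2 mesoderm genes tested none was called. The part of these markers in the KO changes was not tested.

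*Socs2* was at 9.99, 13.5 and 20.2 FPKM at day 0 and 27.3, 37.2 and 32.0 FPKM at day 4 (1.13 ± 0.27, limma adjusted p = 0.0149), and its call was lost when any of 4 of the 6 KO libraries was left out (day 0 replicates 1 and 2, day 4 replicates 2 and 3), with adjusted p-values up to 0.0632. *Pim1* was at 57.9, 64.9 and 56.9 FPKM and at 10.6, 33.5 and 23.0 FPKM, apart but with no call (-1.52 ± 0.59, limma adjusted p = 0.0912). *Lifr* was at 11.9, 10.5 and 16.4 FPKM and at 3.0, 9.68 and 4.86 FPKM, also apart and with no call (-1.12 ± 0.43, limma adjusted p = 0.0897). Without the second KO library of day 4 *Lifr* was called lower (-1.50, adjusted p = 0.0432). *Lif* was at 0.577, 1.46 and 0.619 FPKM at day 0 and at 2.25, 2.22 and 1.78 FPKM at day 4, each day 4 value above each of day 0, with no call (0.74 ± 0.29, limma adjusted p = 0.0992).

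**Figure D4:**
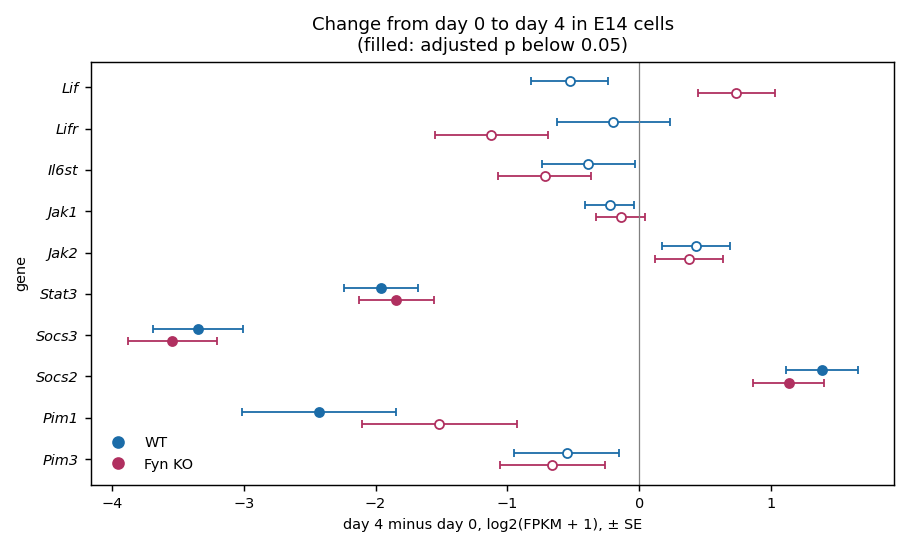
Change from day 0 to day 4 on the log2(FPKM + 1) scale with its SE for the 10 genes in WT and *Fyn* KO E14 cells, with filled circles for an adjusted p below 0.05. *Socs3* lies at -3.35 in WT and -3.54 in KO, and the 2 genotypes lie on opposite sides of 0 only in *Lif*.

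Between KO and WT no member was called at either day. At day 0, 0.131% of all genes tested were lower and 0.0408% higher in KO, and at day 4, 0.0653% were lower and 0.00816% higher, so few genes of any kind passed. At an unadjusted p below 0.05 there was 1 of 10 members at day 0 and 0 at day 4 in limma, the one tool run, where 14.6% and 12.1% of all genes were below it, so the members did not exceed the share of all genes. That member was *Lif*, at 1.55, 3.93 and 2.98 FPKM in WT against 0.577, 1.46 and 0.619 FPKM in KO at day 0, with no overlap (-1.0 ± 0.29, limma adjusted p = 0.157). *Lifr*, *Stat3* and *Socs3* did not overlap between the genotypes at day 0 either, and had no call. The share of all genes without overlap in groups of this size was not counted. Lack of overlap without a call is therefore not read as a difference, here or between the days. The day 0 means were 12.9 FPKM in KO and 7.35 FPKM in WT for *Lifr* (0.75 ± 0.43, limma adjusted p = 0.453), 25.9 and 34.4 FPKM for *Stat3* (-0.39 ± 0.28, limma adjusted p = 0.569), and 34.2 and 26.1 FPKM for *Socs3* (0.39 ± 0.34, limma adjusted p = 0.642). The difference between the day effects of the 2 genotypes had 0 calls among members, and 0% of all genes were called lower and 0% higher. *Lif* was the 1 member with an unadjusted p below 0.05 there, as were 4.38% of all genes (1.26 ± 0.42, limma adjusted p = 0.997). The interval of these differences is wide, as the SE of 0.34 for *Socs3* and 0.59 for *Pim1* between genotypes at 1 day shows. The summed level of 5 neuron genes was 24.0 to 86.1 FPKM in WT and 121 to 204 FPKM in KO at day 0. Only 2 of the 5 were at or above 1 FPKM in each day 0 library. Of the 3 tested none was called between the genotypes at day 0. The part of this sum in the differences between the genotypes was not tested.

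The wider pathway was followed with 33 further genes, namely ligands and receptors that use gp130, the other Jak and Stat genes, inhibitors and phosphatases, and *Pim2*, and with 10 genes described as targets of LIF or Stat3 in ES cells. In WT cells 29 of the 33 passed the filter, of which 6 (20.7%) were lower and 4 (13.8%) higher at day 4, beside 10.3% and 15.5% of all genes. In KO cells 4 (13.8%) were lower and 2 (6.90%) higher, beside 7.56% and 11.8%. In the SFEB trend 16 of 32 (50%) were lower and 9 (28.1%) higher, beside 22.2% and 27.5%, and in the adherent trend 9 of 29 (31.0%) were lower and 7 (24.1%) higher, beside 20.3% and 27.9%. Of the 10 targets 5 were lower and none was higher in WT, 4 were lower in KO, 5 of 9 were lower in the SFEB trend and 8 of 9 in the adherent trend, beside the same shares of all genes. The median change of the targets in WT was -1.02, beside 0.08 over all genes.

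Among the targets *Tfcp2l1*, *Klf4* and *Klf5*, transcription factors of the undifferentiated state, and *Bcl3*, a cofactor of NF-kB, fell in WT cells. *Tfcp2l1* went from a mean of 125 to 4.47 FPKM (-4.62 ± 0.60, limma adjusted p = 0.000505), *Bcl3* from 33.0 to 1.77 FPKM (-3.86 ± 0.42, limma adjusted p = 0.000209), *Klf4* from 108 to 8.24 FPKM (-3.78 ± 0.46, limma adjusted p = 0.000349) and *Klf5* from 104 to 25.5 FPKM (-2.16 ± 0.34, limma adjusted p = 0.00162). In the first SFEB series *Klf4* was at 40.9 FPKM at 0 h and 0.413 FPKM at 142 h and *Klf5* at 47.5 and 1.33 FPKM. *Bcl3* was at 23.1 FPKM at 0 h and listed at 0 at 142 h. *Junb* and *Zfp36*, immediate early genes, fell in the SFEB trend with slopes of -0.42 and -0.26 and had no call in WT (-1.07 ± 0.48 and -0.57 ± 0.50). Targets were thus called lower in these fits and none was called higher.

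Of the ligands and receptors, the alpha chain gene *Cntfr* rose in WT from 0.475 to 21.2 FPKM (3.70 ± 0.65, limma adjusted p = 0.00251) and was at 3.82 FPKM at 0 h and 60.2 FPKM at 142 h in the first SFEB series. *Il6ra*, the receptor of interleukin 6, fell in WT from 3.08 to 0.178 FPKM (-1.78 ± 0.37, limma adjusted p = 0.00595) and in the SFEB trend (slope -0.13). *Osm*, the gene of oncostatin M, fell in WT from 6.78 to 0.324 FPKM (-2.32 ± 0.60, limma adjusted p = 0.0156). Its receptor gene *Osmr* was at 13.6 FPKM at 0 h and 0.0238 FPKM at 142 h in the first SFEB series, with a slope of -0.55, and was at or below 0.115 FPKM on average in WT cells at either day. *Il6* and *Clcf1* fell in the SFEB trend with slopes of -0.18 and -0.14, both at or under 2.21 FPKM at 0 h, and *Cntf* rose with a slope of 0.08, from 0.483 to 3.20 FPKM in the first series.

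*Jak3*, a kinase best known from lymphocytes, fell in WT from 16.6 to 2.22 FPKM (-2.44 ± 0.33, limma adjusted p = 0.000638) and was at 25 and 1.77 FPKM at 0 and 142 h in the first SFEB series. *Stat6* and *Stat5a* fell in the SFEB trend with slopes of -0.18 and -0.13 and had changes of -0.09 ± 0.17 and -0.01 ± 0.23 in WT. Of the inhibitors, *Socs1* and the phosphatase gene *Ptpn6* fell in the SFEB trend with slopes of -0.14 and -0.22, while *Socs7* and the phosphatase gene *Ptpn1* rose with slopes of 0.11 and 0.09. These 4 had no call in WT. *Pim2* rose in WT from 4.23 to 99.2 FPKM (4.10 ± 0.41, limma adjusted p = 0.000159) and in KO (4.17 ± 0.41), whereas *Pim1* fell and *Pim3* had no call in WT. *Pim2* was also called higher in the SFEB trend (slope 0.39 ± 0.14, adjusted p = 0.0203) and in the adherent trend (0.61 ± 0.14, adjusted p = 0.00229), with a SFEB slope of 0.86 before and -1.51 after 48 h. Its SFEB level was 12.8 and 22.5 FPKM at 0 and 142 h of the first series and at 32.5 and 22.7 FPKM at 0 and 216 h of the parallel series.

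The single cells showed the members as scattered values. The values are log10(RPKM + 1) after quantile normalization, turned back to RPKM here (reads scaled to transcript length and library size), and the 8 cells of a time are 1 sample, so no test was made. Over 64 cells *Socs2* was above 1 RPKM in 43, *Pim3* in 39, *Stat3* in 20, *Pim1* in 19, *Socs3* in 17, *Jak1* in 12, *Il6st* in 10, *Lifr* in 9, *Jak2* in 7 and *Lif* in 5. The median over all 11449 genes was 20 cells, so 7 of the members were seen in fewer cells than the median gene.

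*Socs3* was above 1 RPKM in 5 of 8 cells at 0 h, 62.5% with an exact 95% interval of 24.5% to 91.5%, and in 0 of 8 at 9 h, with an interval up to 36.9%. These intervals cover counting error only. The number was 2, 0, 2, 4, 4 and 0 at 38, 60, 84, 106, 144 and 216 h. *Stat3* was above 1 RPKM in 6 cells at 0 h and in 0 at 9 h, then in 2, 2, 3, 3, 1 and 3 cells. The median of genes above 0 per cell was 8972 at 0 h and 6927 at 9 h, so the cells of 9 h listed fewer genes. *Lifr* was above 1 RPKM in 4 cells at 0 h, 1 at 9 h, none from 38 to 60 h, 2 at 84 h, none at 106 and 144 h and 2 at 216 h.

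*Socs2* and *Pim3* were the members most often seen. *Socs2* had a median over cells of 5.19 RPKM at 0 h, 1.39 RPKM at 9 h, 32.3 RPKM at 38 h, 5.21 RPKM at 60 h, 2.64 RPKM at 84 h, 19.5 RPKM at 106 h, 8.31 RPKM at 144 h and 0.0272 RPKM at 216 h, so that it moved up and down between times. *Pim3* had a median of 102 RPKM at 0 h, 5.97 RPKM at 9 h and 0.112 RPKM at 216 h. *Jak2* was above 1 RPKM in 1 cell at 0 h and in 3 cells at 216 h, with a mean of 0.275 and 4.78 RPKM. The mean over cells was lower at 216 h than at 0 h in 6 of the 10 members and, without the cell numbered 16 of 216 h, again in 6. Single cells can take a mean far up: at 144 h the *Socs3* mean of 44.7 RPKM rested on a cell at 328 RPKM, while the median was 2.09 RPKM.

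**Figure D5:**
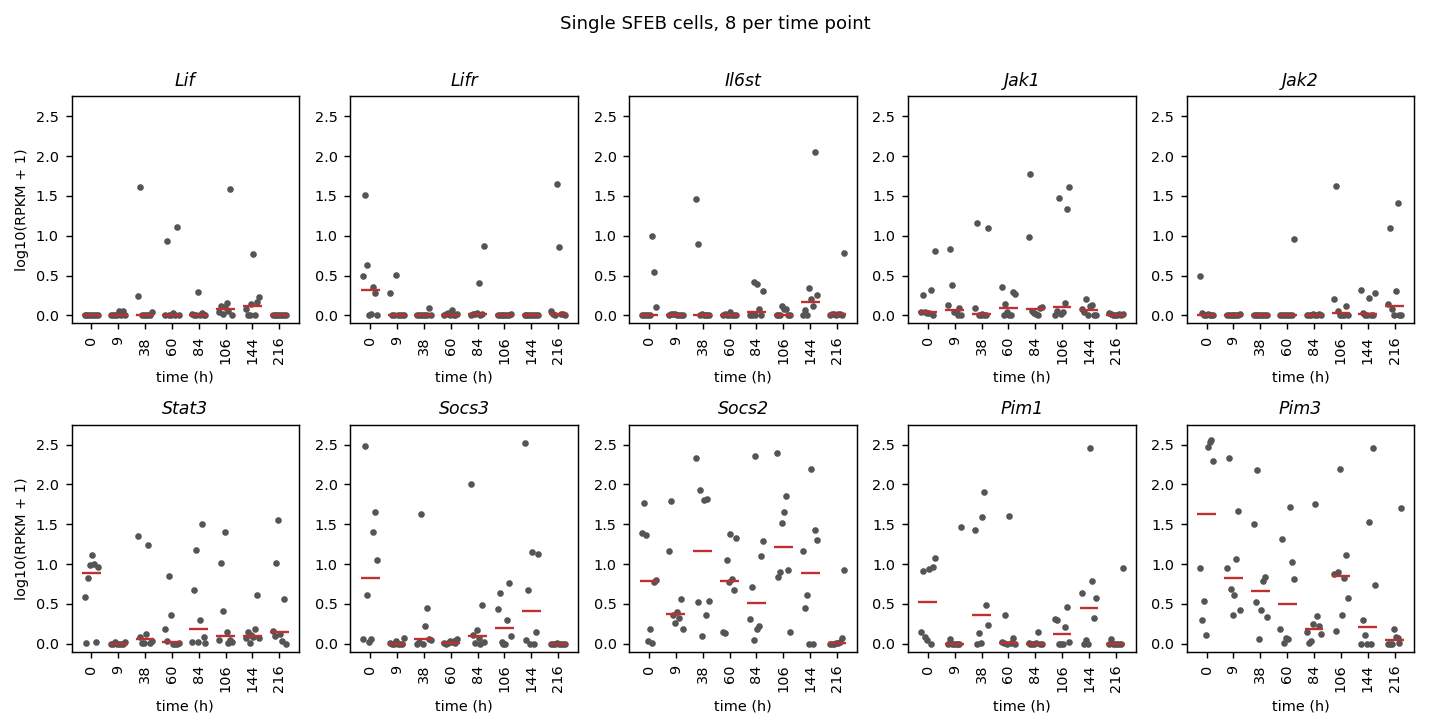
Level of the 10 genes in 64 single SFEB cells as log10(RPKM + 1) by hours, with 8 cells per time as points and their median as a line. *Socs3* and *Stat3* are above 1 RPKM in 5 and 6 of the 8 cells at 0 h and in 0 of 8 at 9 h, while *Socs2* is spread over a wide range from 0 to 144 h.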

How the data were processed

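RNA was measured by RNA-seq with the Nextera XT kit, as single-end reads per the study's methods. The labels name TopHat2 2.0.8b and Cufflinks 2.1.1, with mm9 for the R1 samples and mm10 for the E14 libraries, whereas the study's methods name earlier releases of both tools and mm9. For the adherent cultures and the E14 libraries, deposited FPKM values were used as given. The other linear table, of SFEB populations, holds FPKM that the authors had passed through ComBat, with batches that are not given in the sources used here, and 1256 values below 0 in that table were set to 0. Single-cell RPKM had been quantile-normalized and filtered for low genes by the authors, and then put on the log10(RPKM + 1) scale. The study states a minimum read number for the single-cell and parallel SFEB libraries, but the depth of each library was not used here, and no common step of 1 read was found in the low values of the E14 table, so no counting error is given. The SFEB 0 h sample with no sample type was placed by its title.

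Genes with at least 1 FPKM in at least 3 samples were tested in limma 3.58.1 (R 4.3.3) on log2(FPKM + 1), with a trended prior variance and p-values adjusted by Benjamini-Hochberg over all genes tested (threshold 0.05). The 4 E14 groups shared 1 model, and the time series were fitted separately by table, with a term for the series in SFEB cells. All tests are two-sided. The rest was done with Python 3.11.15, numpy 2.4.6, pandas 2.3.3 and matplotlib 3.10.9. Members, lists, the split at 48 h and tests were chosen with earlier results of these data known. Genes of the wider lists were named where they passed the test in WT or in the SFEB trend and changed by at least 1 on the log2 scale in WT, at 142 h or at 216 h. Alternatives covered the pseudocount (0.1), filters, upper quartile scaling, the samples, the time axis and leaving out each library.

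Equal replicate numbers were checked as pairs by the correlation of residuals. For WT at days 0 and 4 these were 0.199, 0.220 and 0.224 and for WT and KO at day 4 0.136, 0.258 and 0.240, which pairs them, and a replicate block left the 4 and 0 calls of these comparisons as they were. No columns of other samples were in the tables (0).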

Additional observations from a re-analysis of the deposited data

Results flagged for a closer look

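In 34 of 80 sets of the 8 cells of a time for a member, 1 cell stood apart from the other 7, with a gap to its nearest neighbour that chance gives in about 1 of 20 sets (4 of 80) where values are normally distributed. Most cells were at or near 0 with a few high ones, so that rate does not hold here and the number of sets is no measure of cells that stand apart. In 25 of the 34 the cell was above 1 RPKM, and these are given as values. At 0 h these were *Lifr* at 32 RPKM (cell 2), *Jak1* at 5.39 RPKM (cell 12) and *Jak2* at 2.11 RPKM (cell 1). At 9 h these were *Jak1* at 5.85 RPKM (cell 3) and *Pim1* at 28.4 RPKM (cell 13). At 38 h these were *Lif* at 39.8 RPKM (cell 2) and *Socs3* at 41.3 RPKM (cell 4). At 60 h these were *Jak2* at 8.09 RPKM (cell 10), *Stat3* at 6.11 RPKM (cell 4) and *Pim1* at 39.3 RPKM (cell 6). At 84 h these were *Lifr* at 6.49 RPKM (cell 9), *Socs3* at 99.3 RPKM (cell 1) and *Pim3* at 56.5 RPKM (cell 5). At 106 h these were *Lif* at 37.7 RPKM (cell 11), *Jak2* at 40.8 RPKM (cell 3) and *Pim3* at 154 RPKM (cell 5). At 144 h these were *Lif* at 4.84 RPKM (cell 11), *Il6st* at 113 RPKM (cell 16), *Stat3* at 3.06 RPKM (cell 16), *Socs3* at 328 RPKM (cell 2) and *Pim1* at 286 RPKM (cell 11). At 216 h they were *Il6st* at 4.99 RPKM, *Socs2* at 7.49 RPKM, *Pim1* at 8.01 RPKM and *Pim3* at 49.6 RPKM, and these 4 were in the cell numbered 16. The mean of the other 7 cells was 0.0296 RPKM for *Il6st*, 0.0399 RPKM for *Socs2*, 0.0225 RPKM for *Pim1* and 0.141 RPKM for *Pim3*, while *Stat3*, *Jak2* and *Lifr* were listed at 0 in that cell.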

How the results depend on the processing

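In the E14 libraries the members called in WT numbered 3 to 4 and in KO 2 to 3 when each library was left out in turn, and 0 were called between genotypes at day 0, at day 4 or in the difference of the day effects. *Pim1* was also called in KO with only these 2 groups in the fit (adjusted p = 0.0351 in limma). With the replicate block the KO count was 5 in place of 3, as *Lif* (adjusted p = 0.0498 in limma) and *Pim1* (adjusted p = 0.019 in limma) were called, and it changed no other count of members. In KO at days 0 and 4 (correlations of 0.0239, 0.0899 and 0.00112) and for WT and KO at day 0 (0.0628, 0.339 and -0.115) equal numbers do not pair the libraries. Leaving out 1 sample in turn gave 8 calls throughout in the SFEB trend and 6 to 8 in the adherent trend. The SFEB trend of the parallel series alone called 1 member and 5.69% of all genes. On linear hours the SFEB trend called 7 members (62.97% of all genes), without *Socs3*, *Il6st* and *Jak1* and with *Jak2* and *Socs2*, and the adherent trend called 5 (59.8%), without *Lifr*, *Il6st*, *Stat3* and *Socs3* and with *Jak1*. The adherent trend called 5 without the samples up to 8.5 h (54.5%) and 3 before 48 h (11.2%).

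Directions changed under alternatives that leave out the first hours or split the time axis, all added after the values were seen. Without the samples up to 9 h the SFEB slopes were 0.085 for *Il6st*, 0.14 for *Jak1* and 0.26 for *Socs3*. *Stat3* kept its sign there but lost its call (slope -0.033, adjusted p = 0.86 in limma), where 66.9% of all genes were called. Before 48 h the SFEB slopes were -0.20 for *Jak2* and 0.17 for *Socs2*. After 48 h they were 0.26 for *Il6st*, 0.25 for *Jak1*, 0.20 for *Stat3* and 0.64 for *Socs3*. In the adherent cells they were 0.067 for *Stat3* and 0.23 for *Socs3* without the samples up to 8.5 h, and 0.12 for *Il6st*, 0.40 for *Stat3* and 0.63 for *Socs3* after 48 h. By construction these fits leave out or set apart the first hours. Besides these reversed values, 1190 single-gene values stayed on the same side of the threshold, 47 lost and 19 gained a call. The 1190 include 668 with no call in either fit, of which 30 differed in sign.

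Over all genes, WT calls were 3166, and 1831 or 1991 without WT day 0 replicate 2 or 3. KO calls were 2370, and 1281, 1041 and 1150 without day 0 replicates 1 and 2 and day 4 replicate 3. Genotype calls ranged from 2 to 128 at day 0 (21 as fitted) and from 0 to 24 at day 4 (9 as fitted), and those of the difference of day effects from 0 to 4. The SFEB trend called 6648 genes, 11691 with a smooth curve and 761 in the parallel series alone, and the adherent trend 6207 and, before 48 h, 1442. The cause was not tested. The members past 2-fold in 12 comparisons with 0 h were 37 of 120, and 39 to 42 under upper quartile scaling and a pseudocount of 0.1. Of all genes 2.64% to 33.9% were past 2-fold in those of the 12 comparisons described above, and a pooled share was not computed. The 12 comparisons reuse the 0 h library of each series, so the 120 values are not independent. The depth of each library was not used, so low values such as those of *Lif* and *Jak2* carry no counting error here.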
